A study of Mus musculus with 2 samples.

Results

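The genes described here encode the 4 classical families of axon guidance ligands and their receptors in mouse: semaphorins and plexins, ephrins and Eph receptors, Slits and Robo receptors, and netrins with their receptors Dcc and Unc5. They were chosen by the spelling of their symbols, which 68 gene symbols matched, and by a minimum of 50 UMIs (unique molecular identifiers, 1 per counted RNA molecule) over both libraries. This left 63 of 33696 genes, where 18705 genes in all reached the same minimum. The gene Unc50, matches by name only and is no guidance receptor, so 62 genes are described: 19 semaphorins, 9 plexins, 8 ephrins, 13 Eph receptors, 3 Slits, 2 Robo receptors, 4 netrins and 4 netrin receptors. Epha8, Robo3, Robo4, Unc5a and Sema3g fell below the minimum. The members nearest above it were Sema7a with 63 UMIs and Sema4f with 65, and the nearest below were Unc5a with 29 and Robo4 with 27.

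Guidance ligands and their receptors were first known from growing axons, which they attract or repel, and the same molecules also act in epithelia, mesenchyme and vessels. Semaphorins signal through plexins, and the secreted class mostly through a neuropilin that binds a plexin. Ephrins are tied to the membrane and signal to Eph receptors on touching cells, Slits are secreted ligands of Robo receptors, and netrins bind Dcc, neogenin (Neo1) and the Unc5 receptors. In the cochlea these systems are known for steering spiral ganglion axons towards inner and outer hair cells and for placing boundaries in the epithelium.

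The study sequenced nuclei of the cochlear basement membrane region from mice at postnatal day 7. The Serpine2 cOE library came from 20 pooled cochleae of mice of the genotype Lgr5EGFP-CreER/+, Serpine2loxp/loxp, and the control library from 19 pooled cochleae of Serpine2loxp/loxp mice. Both groups received tamoxifen at postnatal day 1, and the loxP-flanked Serpine2 alleles were common to both. The control mice did not carry the driver allele, so an effect of that allele and an effect of Serpine2 cannot be told apart. The labels name the group cOE without giving what recombination does to the loxP-flanked allele. The driver acts in cells that use Lgr5, which at this age are mainly supporting cells of the organ of Corti. Each group was 1 library, so no difference between them has a replicate check, no test was made, and the 95% intervals below cover counting error alone.

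The Serpine2 cOE library held 9777 nuclei after filtering, with 32799620 UMIs and a median of 2401 per nucleus, and the control library held 8250 nuclei, with 27023873 UMIs and a median of 2247. Of all barcodes, 27 occurred in both libraries. The nuclei formed 23 clusters of at least 50 nuclei, and the member genes took no part in the clustering. From marker genes 15 clusters were named for the cell type they resembled, and the others stayed unnamed. Among the supporting cell-like clusters, cluster 5 was named from 9 markers and cluster 23 from 8, with Lgr5 among them. Cluster 16 was named from 3, Sox2, Hey2 and Fabp7, and Lgr5 did not count as a marker there. No cluster resembled Schwann or endothelial cells. The targeted gene itself, Serpine2, stood at 190 CPM (UMIs of the gene scaled to a total of 1e6 for the class) in Serpine2 cOE and 147 CPM in control supporting cell-like nuclei, a log2 ratio of 0.37 (interval 0.10 to 0.64). Hair cell-like cluster 15 stood at 6.40 times the median depth of all nuclei, roof epithelium-like cluster 3 at 4.24 times and unnamed cluster 13 at 0.364 times, the last with 398 Serpine2 cOE and 879 control nuclei. Neuron-like cluster 19 had 44 and 8 nuclei, and cluster 1, which resembled Koelliker's organ or interdental cells, held 2.99% of Serpine2 cOE and 0.945% of control nuclei.

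Different guidance genes had their highest level in different clusters, and the 2 libraries placed it alike for 38 of the 62 members, where the background over all 18295 genes with at least 50 UMIs in the kept nuclei was 44.3%. For 30 members that cluster also held at least 10 UMIs of the gene in each library, against a background of 33.9%. Among these 30, the highest cluster was supporting cell-like for 5 (Ephb1, Plxna4, Sema3a, Sema3d, Sema6a) and hair cell-like for 2 (Sema5b, Sema6b). It resembled Koelliker's organ or interdental cells for 3 (Efnb2, Plxnb1, Slit3) and the epithelium of the cochlear roof for 3 (Efna5, Ntn1, Sema3c). It was mesenchymal-like for 5 (Dcc, Efna2, Efnb1, Sema5a, Unc5c), neuron-like for 3 (Epha4, Sema3e, Unc5d), macrophage-like for 2 (Plxnb2, Plxnd1) and an unnamed cluster for 7 (Epha3, Ephb2, Plxna2, Robo1, Robo2, Sema6d, Slit2). For 11 of the 30 the counting interval of the highest cluster lay above that of the next cluster in both libraries: Slit3, Robo2, Ntn1, Dcc, Unc5c, Unc5d, Efnb2, Epha3, Sema3e, Sema5a and Sema5b. The heatmap of all members shows this spread.

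**Figure D1:**
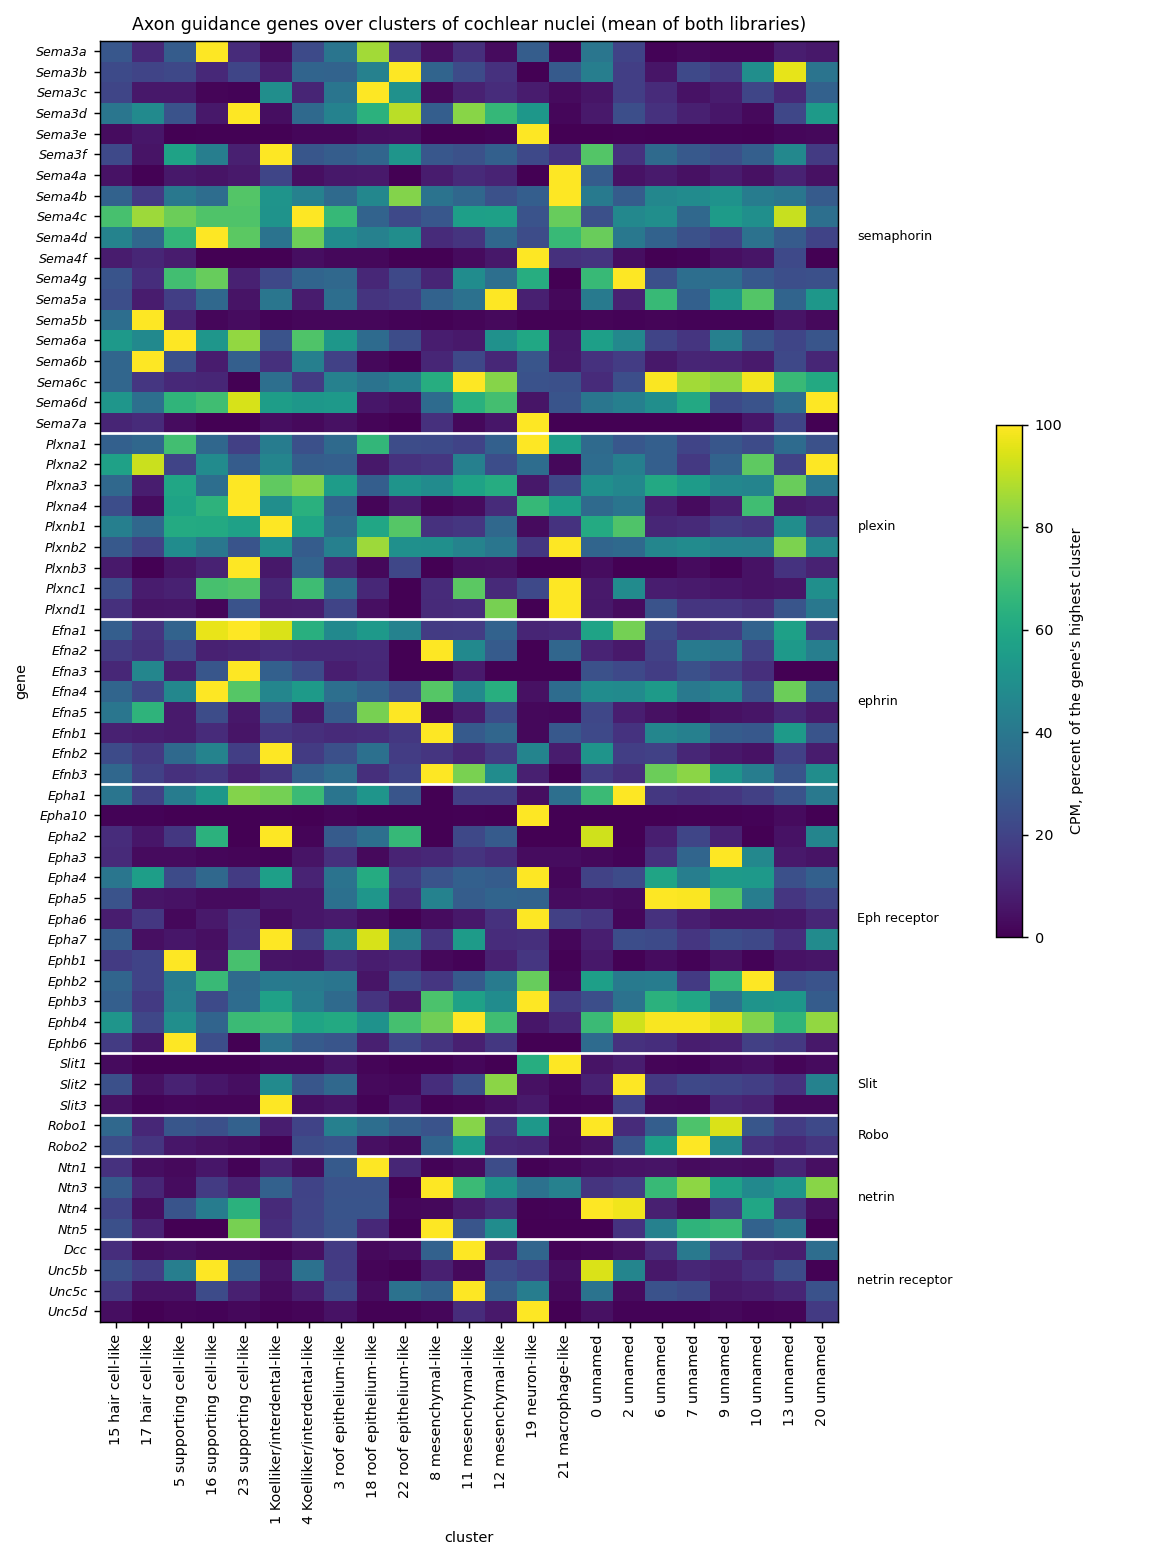
Level of each of the 62 guidance genes (rows, grouped by family) in each of the 23 clusters of at least 50 nuclei (columns, with the cluster number and the cell type it resembles). Colour is CPM, the mean of both libraries, as a percent of the gene's highest cluster, so rows cannot be compared for level; bright cells lie in different columns for different members of each family.

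The highest clusters of the Slit ligands were not those of the Robo receptors. Slit3 (chromosome 11, 35011789 to 35602786, plus strand, GRCm39), a secreted repellent, was highest in Koelliker organ-like or interdental-like cluster 1, at 2976 CPM in Serpine2 cOE and 6162 CPM in control. That was 45.9 times its median over clusters, and the next cluster, unnamed cluster 2, held 689 and 1089 CPM. Slit2, the related ligand, was highest in cluster 2, at 976 and 1026 CPM, with mesenchymal-like cluster 12 next at 767 and 890 CPM. Cluster 2 was led by genes that include Epyc, Kcnq5 and Aqp4. Of the 3 Slits, Slit3 was thus the one whose highest cluster was cluster 1. Slit1 was scarce, and its highest cluster was neuron-like in Serpine2 cOE, from 10 UMIs, and macrophage-like in control, from 12 UMIs.

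The Robo receptors were high together in some clusters and apart in others. Robo2 (chromosome 16, 73688727 to 75244270, minus strand, GRCm39) was highest in unnamed cluster 7, led by Opcml, at 3851 CPM in Serpine2 cOE and 3834 CPM in control. Robo1 (chromosome 16, 72105194 to 72844378, plus strand, GRCm39) was highest in unnamed cluster 0, whose leading genes include Hmga2 and Lama3, at 3230 and 2830 CPM. In the same cluster 0 Robo2 stood at 195 and 136 CPM, while in cluster 7 Robo1 stood at 2262 and 2102 CPM, so Robo1 was high in both clusters and Robo2 in cluster 7. Both were also high in cluster 9, Robo1 at 2941 and 2771 CPM and Robo2 at 1785 and 1812 CPM, where Slit3 stood at 460 and 554 CPM. In cluster 2, where Slit2 was highest, Robo1 stood at 340 and 406 CPM and Robo2 at 823 and 1140 CPM. Cluster 1, where Slit3 was highest, held little of either receptor: 240 and 239 CPM of Robo1 and 37.6 and 43.5 CPM of Robo2. After each nucleus was thinned to 1000 UMIs, 86.1% and 80.9% of cluster 0 nuclei had a Robo1 UMI, against 8.00% and 6.20% of macrophage-like nuclei. In shallow cluster 13 the shares were 19.4% and 57.1%. The part of free RNA in these shares was not tested.

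Among the netrins, Ntn1 (chromosome 11, 68100190 to 68291662, minus strand, GRCm39) was highest in roof epithelium-like cluster 18, at 275 CPM (254 to 297) in Serpine2 cOE, against 274 CPM (247 to 302) in the control library, 26.3 times its median over clusters. The next cluster, roof epithelium-like cluster 3, held 93.6 and 61.2 CPM. Ntn4, a netrin found in basement membranes, had a different highest cluster in each library, cluster 0 with 468 CPM in Serpine2 cOE and cluster 2 with 573 CPM in control. Ntn4 is given here because it was seen to differ, and not by the rule for named genes. Ntn3 and Ntn5 were low throughout, with at most 19.8 and 7.81 CPM in any cluster of either library.

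The netrin receptors were high away from the Ntn1 cluster. Dcc, which mediates attraction to netrin, was highest in mesenchymal-like cluster 11, at 1905 and 1852 CPM, and stood at 50.6 and 43.5 CPM in roof cluster 18. Unc5c, which mediates repulsion, was highest in the same cluster 11, at 1131 and 1256 CPM, and stood at 36.8 and 43.5 CPM in cluster 18. Cluster 11 therefore led for both receptors, and in both libraries. Neo1, a further netrin receptor outside the member list, was present in cluster 18 at 344 and 355 CPM. Unc5d was highest in neuron-like cluster 19, at 3824 CPM (3618 to 4039) and 3934 CPM (3456 to 4458), 67.9 times its median, though the control value rests on 8 nuclei. Unc5b was highest in supporting cell-like cluster 16 at 117 CPM in Serpine2 cOE and in cluster 0 at 163 CPM in control, where cluster 16 held 161 CPM.

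Efna5, an A-type ephrin, was high in roof epithelium-like and hair cell-like nuclei. It was highest in roof epithelium-like cluster 22, at 956 CPM (802 to 1130) and 992 CPM (821 to 1188), followed by roof cluster 18 at 807 and 738 CPM and by hair cell-like cluster 17 at 568 and 697 CPM. Epha3, an Eph receptor of the class that binds A-type ephrins, was highest in unnamed cluster 9, at 2792 and 2485 CPM, with cluster 10 next at 1354 and 1109.8 CPM. Cluster 9 is led by Notum, Nkd1, Tnc and Epha3 itself. The pair was thus high in separate clusters: Efna5 stood at 43.5 and 45.5 CPM in cluster 9, and Epha3 at 49.3 and 111 CPM in hair cell-like cluster 17.

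The 250 bases before the start of these 2 genes, from RefSeq on GRCm38.p6, are shown because ligand and receptor differ in where they are high. Both are on the minus strand, written 5′ to 3′ along the gene, and capitals mark every CG dinucleotide, the site of DNA methylation, which reads the same on both strands. The Efna5 window is chr17:62881318-62881567 and the Epha3 window is chr16:63864176-63864425.
Efna5: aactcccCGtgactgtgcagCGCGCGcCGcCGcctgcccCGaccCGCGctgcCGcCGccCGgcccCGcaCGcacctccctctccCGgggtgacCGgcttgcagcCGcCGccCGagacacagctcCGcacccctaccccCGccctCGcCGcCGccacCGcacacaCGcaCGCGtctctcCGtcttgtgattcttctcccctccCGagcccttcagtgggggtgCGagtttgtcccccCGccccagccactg
Epha3: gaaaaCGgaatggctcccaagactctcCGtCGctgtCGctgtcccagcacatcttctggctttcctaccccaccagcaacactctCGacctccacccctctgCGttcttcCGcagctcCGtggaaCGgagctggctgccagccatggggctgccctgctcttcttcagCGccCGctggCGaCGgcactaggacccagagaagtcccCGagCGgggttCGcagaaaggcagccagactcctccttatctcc
The Efna5 window holds 32 CG dinucleotides, and 4.58% of the 32851 windows of this length in the table hold as many or more. The Epha3 window holds 16, which 25.4% of windows reach. The median is 6 over all windows and 15.5 over the 68 windows of the 52 members that have an entry. CG dinucleotides occur in 92.1% of all windows, and their number here is a description of the letters.

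Other ephrins and Eph receptors had their highest level in other clusters. Efnb2, a B-type ephrin, was highest in cluster 1, at 232 and 213 CPM, with cluster 0 next at 125 and 105 CPM. Efnb1 and Efna2 were highest in mesenchymal-like cluster 8, Efnb1 at 69.2 and 68.6 CPM and Efna2 at 29.7 and 31.9 CPM, the latter from 12 and 13 UMIs. Among the receptors of B-type ephrins, Ephb1 (chromosome 9, 101799327 to 102231898, minus strand, GRCm39) was highest in supporting cell-like cluster 5, whose leading genes include Fgfr3. It stood there at 344 CPM (306 to 384) and 444 CPM (390 to 504), 18.6 times its median. Supporting cell-like cluster 23 was next, at 231 and 328 CPM, while the remaining supporting cell-like cluster 16 held 29.7 and 12.3 CPM. After thinning, 32.3% and 33.0% of cluster 5 nuclei had an Ephb1 UMI, and no macrophage-like nucleus of 100 and 129 did, which allows a share of up to 3% and 2.33%. Ephb2 was highest in unnamed cluster 10, at 114 and 121 CPM, and Epha4, which binds both ephrin types, in neuron-like cluster 19, at 250 and 305 CPM. Neither was clear of its next cluster by counting intervals in both libraries, and the control value of Epha4 rests on 19 UMIs from 8 nuclei.

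Epha7 and Epha5 were widely present, and are given here because of their level and not by the rule for named genes. Epha7 stood at 2671 and 3059 CPM in cluster 1 and at 2892 and 2496 CPM in roof cluster 18, so the libraries disagreed on which was higher. Epha5 stood at 1859 and 1898 CPM in cluster 6 and at 1887 and 1841 CPM in cluster 7, which do not differ beyond their counting intervals in either library. The remaining Eph receptors were lower or rested on few UMIs: Epha10 had 54 UMIs in Serpine2 cOE and 7 in control in neuron-like cluster 19 and at most 8.01 CPM in any other cluster.

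Among the semaphorins, Sema5b and Sema6b were highest in hair cell-like nuclei. Sema5b (chromosome 16, 35360820 to 35485102, plus strand, GRCm39), a transmembrane semaphorin with thrombospondin repeats, was highest in hair cell-like cluster 17, at 944 CPM (898 to 993) in Serpine2 cOE, against 1117 CPM (1054 to 1182) in the control library. That was 82.1 times its median over clusters. The deep hair cell-like cluster 15 was next, at 341 and 402 CPM, followed by supporting cell-like cluster 5 at 118 and 85.9 CPM. After thinning, 50.3% and 59.7% of cluster 17 nuclei had a Sema5b UMI, against 0 and 0.775% of macrophage-like nuclei. The unthinned shares in cluster 17 were 88.6% and 94.5%. Sema6b was highest in the same cluster 17, but at 27.1 and 40.8 CPM.

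The secreted class 3 semaphorins, which signal mostly through neuropilins and plexins, were high in supporting cell-like, roof epithelium-like and neuron-like clusters. Sema3a was highest in supporting cell-like cluster 16, at 1074 and 1079 CPM, with roof cluster 18 next at 1013 and 845 CPM. In deep roof cluster 3 it stood at 528 and 308 CPM. Sema3c was highest in roof cluster 18, at 155 and 135 CPM. Sema3d was highest in supporting cell-like cluster 23, at 154 and 125 CPM, and Sema3e in neuron-like cluster 19, at 853 CPM (757 to 958) and 401 CPM (260 to 593). The neuropilins lay elsewhere: Nrp1 was highest in macrophage-like cluster 21, at 544 and 652 CPM, and in cluster 16 it stood at 22.7 and 44.9 CPM. Nrp2 was high in unnamed clusters 10, at 523 and 470 CPM, and 9, at 446 and 496 CPM, and stood at 367 and 425 CPM in hair cell-like cluster 17.

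The plexins are the semaphorin receptors, and the 5 whose highest cluster was the same in both libraries with enough UMIs reached 2.25 to 7.90 times their median there. Plxna4 was highest in supporting cell-like cluster 23, at 394 and 641 CPM, and Plxna2 in unnamed cluster 20, at 226 and 266 CPM, with hair cell-like cluster 17 close at 199 and 253 CPM. In cluster 17 Plxna4 stood at 9.86 and 25.6 CPM, Plxna1 at 11.7 and 24.7 CPM and Plxna3 at 1.85 and 1.90 CPM. In the deep hair cell-like cluster 15, Plxna2 stood at 132 and 150 CPM and Plxna4 at 120 and 126 CPM. Plxna2 was thus near its highest level in cluster 17 and lower in cluster 15. Plxnd1 and Plxnb2 were highest in the macrophage-like cluster, Plxnd1 at 58.6 and 65.2 CPM and Plxnb2 at 74.6 and 78.3 CPM, and Plxnb1 in cluster 1, at 50.5 and 52.1 CPM. Plxnc1, the receptor of Sema7a, was highest in the macrophage-like cluster of the control library, at 100 CPM from 23 UMIs. In Serpine2 cOE it was highest in supporting cell-like cluster 16, and the macrophage-like cluster held 58.6 CPM from 11 UMIs. Sema7a was seen at 12 UMIs in the neuron-like cluster of Serpine2 cOE and 0 in that of control, whose 62284 UMIs allow up to 48.2 CPM.

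**Figure D2:**
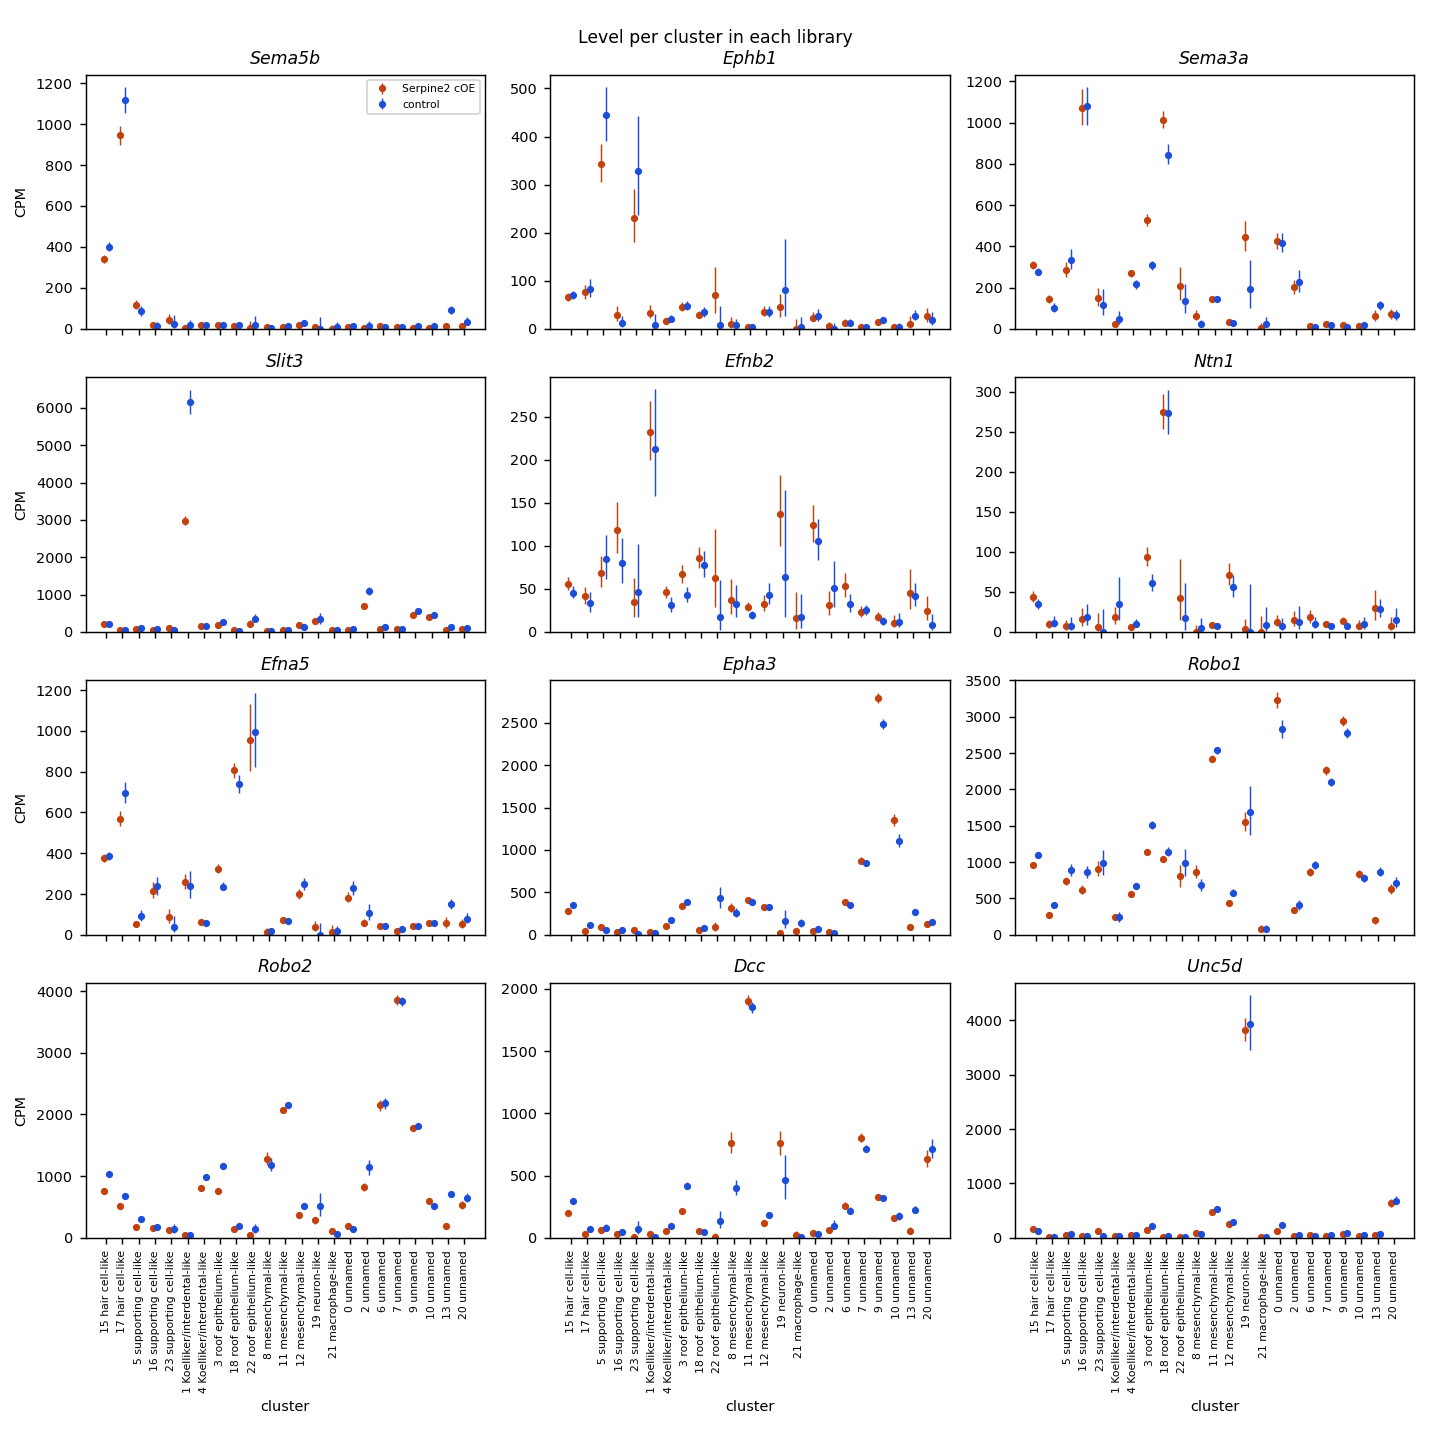
CPM of 12 guidance genes (panels) in each of the 23 clusters (horizontal axis), with the Serpine2 cOE library in orange and the control library in blue; points are values of 1 library and bars are 95% Poisson intervals of counting error. Both libraries place the peak of Sema5b in hair cell-like cluster 17, of Ntn1 in roof cluster 18, of Epha3 in cluster 9 and of Unc5d in neuron-like cluster 19, and the Slit3 peak in cluster 1 is higher in control.

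Hair cell-like nuclei were clustered once more, again without the member genes, and 2 of 6 sub-clusters could be named. The inner hair cell-like sub-cluster (69 Serpine2 cOE and 21 control nuclei) carried all 4 inner markers, Slc17a8, Fgf8, Otof and Tbx2, and the outer hair cell-like sub-cluster (154 and 88 nuclei) carried 5 of 6 outer markers, among them Slc26a5 and Ocm. Inner hair cells are the sensory cells proper, and outer hair cells amplify sound. Of 33 members with at least 20 UMIs in the 2 sub-clusters, 8 were higher in inner and 3 in outer nuclei in both libraries by counting intervals clear of 0, where the background over all genes was 7.23% and 5.85%. The inner sub-cluster held 16 nuclei of the deep cluster, and these counts include them.

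Efna5 was the member that stood most plainly on the outer side. It was at 79.0 CPM in inner and 488 CPM in outer nuclei of the Serpine2 cOE library, and at 70.9 and 579 CPM in the control library. The log2 ratios of inner over outer were -2.63 (interval -3.15 to -2.14) and -3.03 (-4.00 to -2.20). Plxna2 also stood lower in inner nuclei, with log2 ratios of -1.32 and -1.02, as did Sema3d, with -0.97 and -1.29. Unnamed sub-cluster 5 (58 and 40 nuclei, led by Samsn1) held still more Efna5, at 1243 and 1240 CPM, and more Sema5b, at 1411 and 1608 CPM, than either named sub-cluster. It carried 3 markers from the neuron list.

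Epha7, a receptor for A-type ephrins, stood on the inner side, at 277 CPM in inner and 38.5 CPM in outer nuclei of the Serpine2 cOE library and at 278 and 27.5 CPM in the control library. The log2 ratios were 2.84 (2.25 to 3.49) and 3.34 (2.40 to 4.39). Without the 16 inner nuclei that came from the deep cluster, inner nuclei held 251 and 218 CPM of Epha7, and 52.4 and 38.0 CPM of Efna5, the latter from 20 and 4 UMIs. The other members higher in inner nuclei were Sema6d, Unc5c, Slit2, Epha5, Epha1, Unc5d and Epha3. For Epha1 the control library held 3 inner and 0 outer UMIs. Without the nuclei of the deep cluster, inner Slit2 in Serpine2 cOE stood at 13.1 CPM from 5 UMIs, against 13.8 CPM in outer nuclei, so that its call was lost. Inner Epha5 then stood at 60.2 and 199 CPM, from 23 and 21 UMIs. Sema6d, Unc5c, Epha1, Unc5d and Epha3 were not recomputed without these nuclei, so whether their calls hold is not known. Several of the members higher in inner nuclei, such as Epha5 at 49.9 and 236 CPM and Slit2 at 37.4 and 242 CPM in inner nuclei, were far apart between the libraries and are high in other clusters. The mesenchymal marker list, all 12 genes of it, summed to 509 and 892 CPM in inner and to 422 and 318 CPM in outer nuclei. The Koelliker's organ or interdental list summed to 746 and 1034 CPM in inner and to 326 and 183 CPM in outer nuclei, and to 280 and 161 CPM in inner nuclei without those of the deep cluster. The part of these lists in the values was not tested. Sema5b was high in both kinds, at 975 and 1052 CPM in inner and 699 and 984 CPM in outer nuclei.

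**Figure D3:**
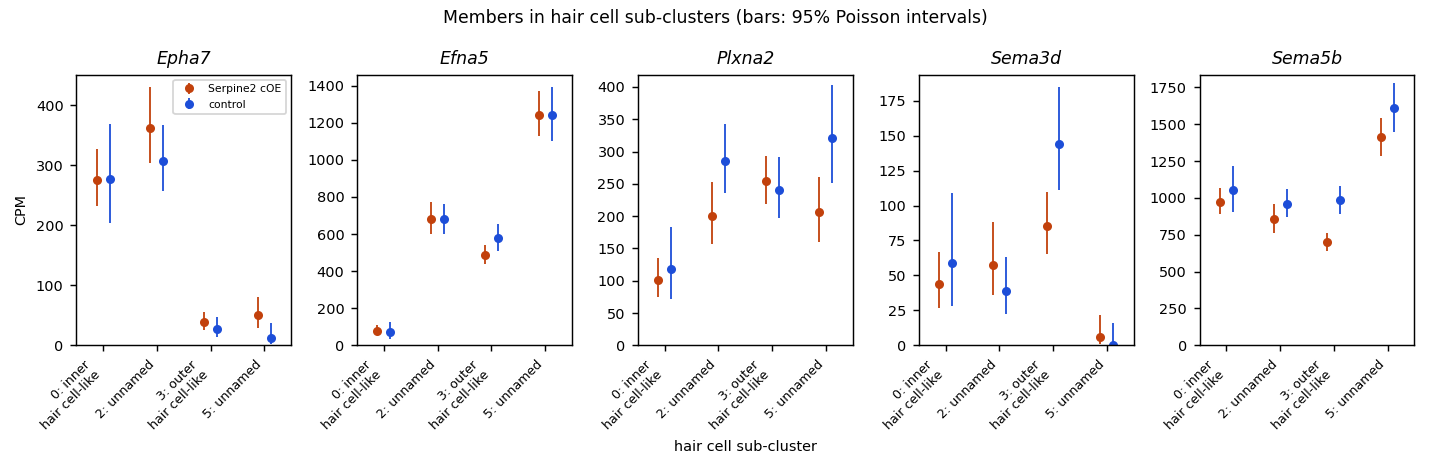
CPM of 5 guidance genes in hair cell-like sub-clusters (horizontal axis, number and name), with Serpine2 cOE in orange and control in blue and 95% Poisson intervals as bars; the sub-clusters drawn mostly from the deep cluster are left out. Epha7 is higher in inner than in outer hair cell-like nuclei, Efna5, Plxna2 and Sema3d the other way, and Sema5b is high in all 4.

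The 2 libraries were then compared within classes of nuclei, to see whether guidance genes stood higher or lower in Serpine2 cOE. Over all nuclei 3 of 62 members were more than 1.5-fold higher and 0 more than 1.5-fold lower, where 3.94% and 4.5% of all genes were. Supporting cell-like nuclei (381 and 222) held clusters 5 and 23, with Lgr5 as a marker, and cluster 16 without it. In this class 4 of 43 measured members were higher and 6 lower, against 9.49% and 7.36% of all genes. In hair cell-like nuclei (481 and 369) 2 of 53 were higher and 5 lower, against 6.05% and 7.33%. In mesenchymal-like nuclei 0 of 55 were higher and 1 lower, against 5.86% and 5.54%. The other nuclei were all those outside the supporting cell-like and hair cell-like classes, so they include the mesenchymal-like ones. In them 4 of 62 were higher and 1 lower, against 6.04% and 6.79%. Most of these shares lie near the background, and the member median of the log2 ratio was -0.02 over all nuclei, -0.14 in supporting cell-like and -0.13 in hair cell-like nuclei, beside medians of 0.01, 0.03 and 0.00 over all genes. The supporting cell-like clusters differed, with member medians of -0.26 in cluster 5, -0.06 in cluster 16 and -0.12 in cluster 23. The medians over all genes there were 0.02, 0.04 and 0.05.

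**Figure D4:**
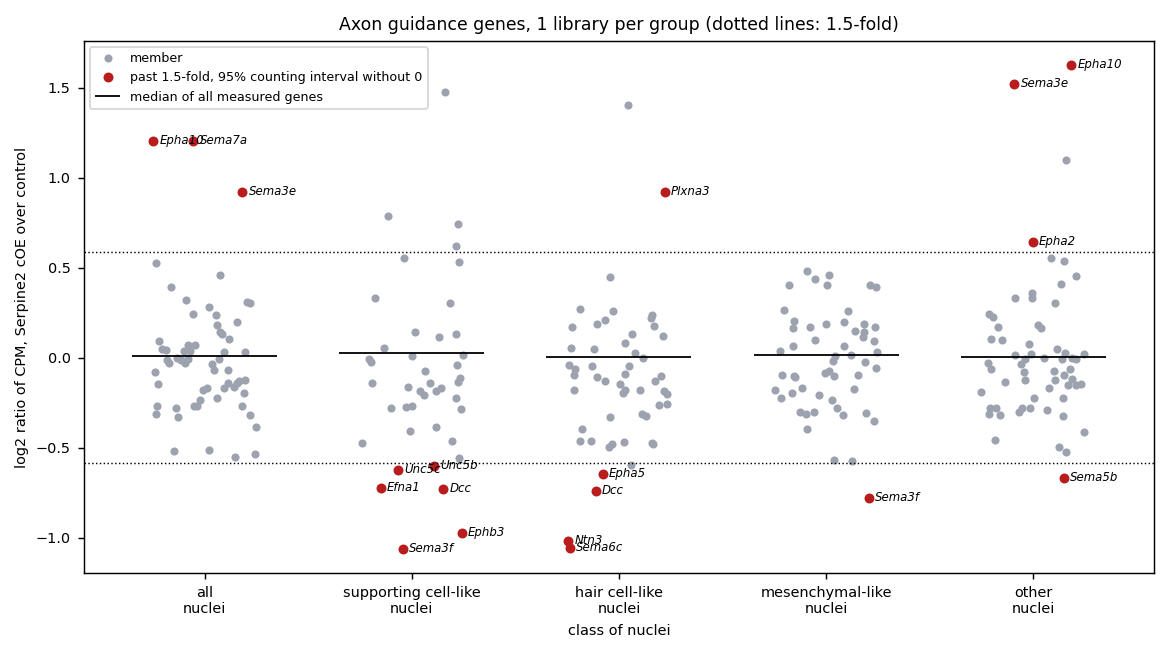
Log2 ratio of CPM, Serpine2 cOE over control, of each measured guidance gene (points) in 5 classes of nuclei; dotted lines mark 1.5-fold, black lines the median of all measured genes, and red points the members past 1.5-fold whose 95% counting interval does not include 0. Most members lie between the dotted lines in every class, and Sema3e and Epha10 are the highest red points in the other nuclei. The other nuclei include the mesenchymal-like ones.

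In supporting cell-like nuclei the 6 members lower in Serpine2 cOE included 3 netrin receptors. Unc5c had 206 UMIs in Serpine2 cOE and 208 in control, which was 116 and 179 CPM, a log2 ratio of -0.62 (-0.91 to -0.34). Dcc had 71 and 77 UMIs, 39.9 and 66.1 CPM, a log2 ratio of -0.73 (-1.21 to -0.24), and 22 of the 71 and 15 of the 77 UMIs lay in 1 nucleus each. Unc5b had 123 and 122 UMIs, 69.2 and 105 CPM, a log2 ratio of -0.60 (-0.97 to -0.23). Cluster 16 held 67 and 79 of these UMIs, at 117 and 161 CPM within it. It made up 136 of the 381 and 95 of the 222 nuclei of the class. The part of this cluster mix in the class ratio was not tested. Lower values of Unc5c were not confined to this class. Among the 22 clusters with at least 20 Unc5c UMIs, its log2 ratio was below 0 in 16. The interval lay below 0 in 10 and above 0 in 2. For Unc5b the ratio was below 0 in 12 of 15 such clusters, with the interval below 0 in 2 and above 0 in 0. For Dcc it was below 0 in 11 of 20, with the interval below 0 in 6 and above 0 in 3. Both Unc5c and Dcc were highest in mesenchymal-like cluster 11 and far lower in supporting cell-like nuclei, whereas Unc5b was high in supporting cell-like cluster 16. Sema3f, Ephb3 and Efna1 were also lower, with log2 ratios of -1.06, -0.97 and -0.72 from 19 to 40 UMIs per library. The mesenchymal markers (12 of 12 detected in each library) summed to 661 and 580 CPM in this class, a log2 ratio of 0.19, and their part in the result was not tested. The 4 members past the fold on the higher side, Epha1, Sema4g, Sema6b and Plxna3, each had a counting interval that included 0.

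In hair cell-like nuclei Dcc and Epha5 were lower in Serpine2 cOE. Dcc had 797 and 1172 UMIs, 147 and 246 CPM, a log2 ratio of -0.74 (-0.87 to -0.61). Epha5 had 1623 and 2236 UMIs, 300 and 469 CPM, a log2 ratio of -0.64 (-0.74 to -0.55). With each library clustered by itself, which changes the nuclei in the class, the log2 ratio of Dcc was -0.11 and that of Epha5 was 0.20. Deep cluster 15 held most of these UMIs: 1511 and 2092 of Epha5, where its log2 ratio was -0.50 (-0.59 to -0.40), and 750 and 1101 of Dcc, with -0.58 (-0.72 to -0.45). In cluster 17 Epha5 had 112 and 144 UMIs and a log2 ratio of -0.99 (-1.35 to -0.62), and Dcc 47 and 71 UMIs and -1.22 (-1.78 to -0.67). Lower values of Epha5 were not confined to hair cell-like nuclei. Among the 23 clusters with at least 20 Epha5 UMIs, its log2 ratio was below 0 in 18 and above 0 in 5. The interval lay below 0 in 9 and above 0 in 2. Both genes had their highest levels in mesenchymal-like or unnamed clusters, and the mesenchymal markers (12 of 12 detected in each library) summed to 949 CPM in Serpine2 cOE and 1173 CPM in control hair cell-like nuclei, a log2 ratio of -0.31. The macrophage markers (8 of 8) summed to 106 and 161 CPM, a log2 ratio of -0.60. Their part in the result was not tested. Sema6c (18 and 33 UMIs) and Ntn3 (14 and 25 UMIs) were also lower, with log2 ratios of -1.06 and -1.02, and Plxna3 (43 and 20 UMIs) was higher, with 0.92 (0.13 to 1.77). Without the deep cluster, whose nuclei also carried Koelliker's organ or roof markers, 2 of 38 members were higher and 9 lower, against 8.92% and 9.95% of all genes, and the Plxna3 log2 ratio was -0.0375. Sema5b and Efna5 stood close together between the libraries in the whole class: Sema5b at 522 and 560 CPM, a log2 ratio of -0.10 (-0.18 to -0.02), and Efna5 at 435 and 455 CPM, -0.06 (-0.15 to 0.02).

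The 3 members higher in Serpine2 cOE over all nuclei were Sema3e, Epha10 and Sema7a. Neuron-like cluster 19 held 66.7% and 24.1% of the Epha10 UMIs in Serpine2 cOE and control, and 28.6% and 0% of those of Sema7a. Sema3e, a secreted semaphorin that signals through Plxnd1, had 607 and 264 UMIs, 18.5 and 9.77 CPM, a log2 ratio of 0.92 (0.71 to 1.14). Cluster 19 held 287 of the 607 UMIs in Serpine2 cOE (47.3%) and 25 of the 264 in control (9.47%), and 1 Serpine2 cOE nucleus held 47. Without that cluster the log2 ratio of Sema3e was 0.15, that of Epha10 went from 1.20 to 0.03, and 0 of 60 measured members were higher and 1 lower, against 3.4% and 4.55% of all genes. Cluster 19 carried 44 and 8 nuclei, and within it Sema3e stood at the 853 and 401 CPM given above, a log2 ratio of 1.09 (0.50 to 1.74).

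In the other nuclei Sema5b was lower in Serpine2 cOE, with 317 and 415 UMIs, 12.4 and 19.7 CPM and a log2 ratio of -0.67 (-0.88 to -0.45). Shallow cluster 13 held 5 of these UMIs in Serpine2 cOE and 89 in control, 13.3 and 92.0 CPM, and without it the log2 ratio was -0.39. Epha2 was higher in the same class, with 72 and 38 UMIs and a log2 ratio of 0.64 (0.06 to 1.25). In mesenchymal-like nuclei Sema3f, a secreted semaphorin, was lower, with 41 and 62 UMIs, 7.02 and 12.03 CPM and a log2 ratio of -0.78 (-1.38 to -0.19).

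Slit3 differed between the libraries within the cluster where it was highest, which was noticed after its values were seen. In cluster 1 (292 and 78 nuclei) it had 2297 and 1418 UMIs, a log2 ratio of -1.05 (-1.15 to -0.95), and in cluster 2 a log2 ratio of -0.66 (-0.86 to -0.46). Thinned to 1000 UMIs, 76.0% of cluster 1 nuclei in Serpine2 cOE and 83.1% in control had a Slit3 UMI. Over all nuclei Slit3 stood at 233 and 239 CPM, a log2 ratio of -0.04 (-0.08 to 0.01). Cluster 1 made up the 2.99% and 0.945% of nuclei given above. Of the 23 clusters with at least 20 Slit3 UMIs, the counting interval of the log2 ratio lay below 0 in 8 and above 0 in 2.

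A further 62 genes of the same pathways, co-receptors, adhesion partners and signalling proteins downstream of the receptors, were counted as a list. Over all nuclei 0 of 61 measured were more than 1.5-fold higher and 1 lower, in supporting cell-like nuclei 2 of 52 higher and 5 lower, and in hair cell-like nuclei 0 of 61 higher and 4 lower. The shares of all genes in these classes were 3.94% and 4.5%, 9.49% and 7.36%, and 6.05% and 7.33%. In mesenchymal-like nuclei 2 of 56 were higher and 1 lower, against 5.86% and 5.54%, and in the other nuclei 3 of 62 were higher and 3 lower, against 6.04% and 6.79%. Flrt1, a membrane protein that binds Unc5 receptors, was the 1 gene lower over all nuclei, at 31.5 and 49.5 CPM (1034 and 1339 UMIs), a log2 ratio of -0.65 (-0.77 to -0.53). It was more than 1.5-fold lower in each of the other 4 classes too, with log2 ratios of -0.77 (-1.59 to 0.05) in supporting cell-like, -0.63 in hair cell-like, -0.67 in mesenchymal-like and -0.65 in the other nuclei. These values share nuclei, as the other nuclei include the mesenchymal-like ones and all nuclei include every class. Vav3, an exchange factor that acts below Eph receptors, was at 123 and 187 CPM in hair cell-like nuclei, a log2 ratio of -0.60 (-0.75 to -0.45). It is 1 of the 4 genes lower in that class and was not named by a rule. In neuron-like nuclei it went the other way, at 268 and 128 CPM (90 and 8 UMIs), a log2 ratio of 1.06 (0.02 to 2.31).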

How the data were processed

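The deposited values are counts: per the file headers, the authors used Cell Ranger 8.0.1 to give whole UMI numbers for each gene in each barcode. Per the labels, libraries were made with the 10x 3′ kit, and the genome build is given both as GRCm39 and as mm10. Positions are from GENCODE M39 by gene identifier. Nuclei with at least 500 genes and at most 5% mitochondrial UMIs were kept. Scrublet in scanpy 1.11.5 marked 0% of either library, so the top 0.8% of scores per 1000 barcodes were removed (1040 and 703 nuclei). Both libraries were clustered together without integration (3000 variable genes, 50 components, 15 neighbours, Leiden resolution 1), leaving out the member genes, Serpine2, Lgr5, sex-linked, mitochondrial, ribosomal and haemoglobin genes. A name needed at least 3 markers found in 10% of nuclei at 2-fold over other nuclei. UMIs were summed per library and class and scaled to CPM. Ratios carry exact conditional 95% intervals, which cover counting error alone. A run on simulated data drew independent Poisson counts, the model these intervals assume. It therefore could not show the effect of many UMIs lying in 1 nucleus. In a class, members with at least 20 UMIs over both libraries were measured (50 over all nuclei, where all 62 passed). Named were, per family, up to 5 members with the same highest cluster in both libraries and at least 10 UMIs there in each, by ratio to the median cluster, and per class those past 1.5-fold with an interval clear of 0. Members and lists were chosen with earlier results of these data known. Alternatives covered scaling (TMM, edgeR 4.0.16), minimums, fold, thinning, filters, doublets and clustering. A count of 0 was given the limit of 3 counts.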

Additional observations from a re-analysis of the deposited data

How the results depend on the processing

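No paired analysis was possible because each group is 1 library, and no library could be left out. The number of members whose highest cluster agreed between libraries was 38, and ranged from 27 (after thinning) to 40 in the 7 alternatives run for it. The alternative with no minimum also counted members with fewer UMIs. The share over all genes was not computed in these alternatives, so whether it moved from 44.3% alongside is not known. Counts of members past the fold depended on the settings. The share over all genes was computed for all nuclei without the neuron-like cluster and for hair cell-like nuclei without the deep cluster. For the other alternatives it was not, so those counts cannot be read as a result about the members. Over all nuclei 3 became 5 with nuclei from 200 genes and up to 10% mitochondrial UMIs, and 1 without the neuron-like cluster, where Sema7a fell below the minimum of UMIs. In hair cell-like nuclei 7 became 12 with no minimum of UMIs, 3 at a fold of 2, 4 after thinning, 12 with each library clustered by itself and 11 without deep clusters. In mesenchymal-like nuclei 1 became 5 with no minimum, 0 at a fold of 2, 5 after thinning, 2 without the nucleus with most UMIs of each gene, 4 with nuclei from 200 genes, 0 with nuclei from 1000 genes, 2 with likely doublets kept, 0 with member genes allowed in clustering and 13 with separate clustering. In the other nuclei 5 became 3 at a fold of 2, with nuclei from 1000 genes and without the neuron-like cluster. In supporting cell-like nuclei 10 became 2 at a fold of 2 and 20 with separate clustering. The alternatives that leave out the neuron-like, deep or shallow clusters were chosen after seeing the data. For single members, the log2 ratio turned in 2 cases: Epha5 in hair cell-like nuclei was 0.20 with separate clustering, and Plxna3 there was -0.0375 without deep clusters, from 3 and 2 UMIs. Dcc in hair cell-like nuclei went from -0.74 to -0.11 with separate clustering, and the cause was not tested in any of these. Depth limits the rare members: from 18 and 33 UMIs in hair cell-like nuclei, the interval of the Sema6c log2 ratio ran from -1.97 to -0.18.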
